A study of Mus musculus with 9 samples.

Results

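Id2 and Id3 encode inhibitors of E proteins, and both genes were followed through all lists of this series on T-bet in mouse T helper 1 (Th1) cells. They were taken by gene symbol, as 2 of the 7189 genes named in any of the 5 lists the authors deposited. Of 14844 listed regions, 20 had one of them as closest gene: 18 had Id2 and 2 had Id3. The cells were CD4+ T cells of strain C57BL/6 that carried the reporter T-bet-ZsGreen, in which a green fluorescent protein shows where the T-bet gene is active. The wild type group had an intact Tbx21, the gene of T-bet, and the Tbx21 KO group was Tbx21-/-, with the same reporter. Cells of both genotypes were naive and reporter-negative at the start and were cultured under Th1 conditions with interleukin-2, interleukin-12 and anti-IL-4 on irradiated splenocytes depleted of T cells. Reporter-positive cells were then sorted and expanded, so that both genotypes were selected on activity of the Tbx21 locus. RNA-seq had 2 libraries per genotype, T-bet ChIP-seq had 1 wild type library, and ChIP-seq of H3K4me1 and of H3K27me3 had 1 library per genotype each.

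Id proteins have a helix-loop-helix domain through which they pair with E proteins, but they lack the basic region that contacts DNA. An E protein bound by an Id protein cannot hold its DNA site, the E-box, so Id proteins lower E protein activity. E proteins are encoded by Tcf3 (E2A), Tcf12 (HEB) and Tcf4 (E2-2). In T cells, Id2 is known as the Id gene of effector cells, and Id3 as that of naive, memory and follicular helper cells. T-bet is the lineage factor of Th1 cells, enhancers typically carry the histone mark H3K4me1, and Polycomb-repressed chromatin carries H3K27me3.

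The promoter sequences of both genes are shown because E-boxes are the sites of the proteins that Id2 and Id3 inhibit, and T-box sites those of T-bet. They are the 250 bases before the annotated start, from RefSeq in build GRCm38.p6, at chr12:25096093-25096342 on the minus strand for Id2 and chr4:136143572-136143821 on the plus strand for Id3. They are written 5′ to 3′, with an E-box (CANNTG) or a T-box core site (GGTGTG or CACACC) in capitals.
Id2: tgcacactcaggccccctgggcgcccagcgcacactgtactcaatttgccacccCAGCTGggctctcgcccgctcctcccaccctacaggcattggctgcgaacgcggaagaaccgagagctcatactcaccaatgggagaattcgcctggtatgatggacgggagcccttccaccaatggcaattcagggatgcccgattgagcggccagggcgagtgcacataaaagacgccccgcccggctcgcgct
Id3: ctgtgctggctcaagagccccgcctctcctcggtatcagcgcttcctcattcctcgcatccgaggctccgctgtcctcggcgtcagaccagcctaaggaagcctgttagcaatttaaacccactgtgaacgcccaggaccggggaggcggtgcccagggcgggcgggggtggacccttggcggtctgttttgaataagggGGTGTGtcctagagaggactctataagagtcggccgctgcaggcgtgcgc
The Id2 window held 1 E-box, CAGCTG, from base -196 to -191 before the start, and no T-box core site. The Id3 window held 1 T-box core site, GGTGTG, from base -50 to -45, and no E-box. Both motif searches covered both strands, and the motif hits do not overlap one another. Over 32851 promoter windows of the same length, 66.2% held CANNTG, 13.0% held CAGCTG and 16.3% held GGTGTG or CACACC. Neither window held the 8-letter T-box site AGGTGTGA or TCACACCT, which 1.12% of windows held, nor the E-box CACCTG or CAGGTG, which 17.2% held. Both windows were 62.8% G and C, above the median of 52.4% over all windows. These matches describe letters in a window of another build than the mm9 coordinates of the regions below, so the regions were not placed relative to the gene starts.

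Tbx21, the targeted gene, had a wild type level of 271 FPKM (a level scaled for transcript length and for library size) and a Tbx21-/- level of 124 FPKM, a log2 ratio of -1.11 by the authors' deposited table. Which part of the gene was deleted is not stated by the labels, so reads from any part left could not be separated.

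Of the pair, 1 gene, Id3, was on a list of regulated genes, the negative one, which holds 0.941% of protein-coding genes and collects those higher without T-bet. The wild type level of Id3 was 6.85 FPKM and its Tbx21-/- level 14.7 FPKM. Its log2 ratio, Tbx21-/- to wild type, was 1.08 according to the authors' deposited table. That is close to the smallest on the negative list, 1.00.

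**Figure D1:**
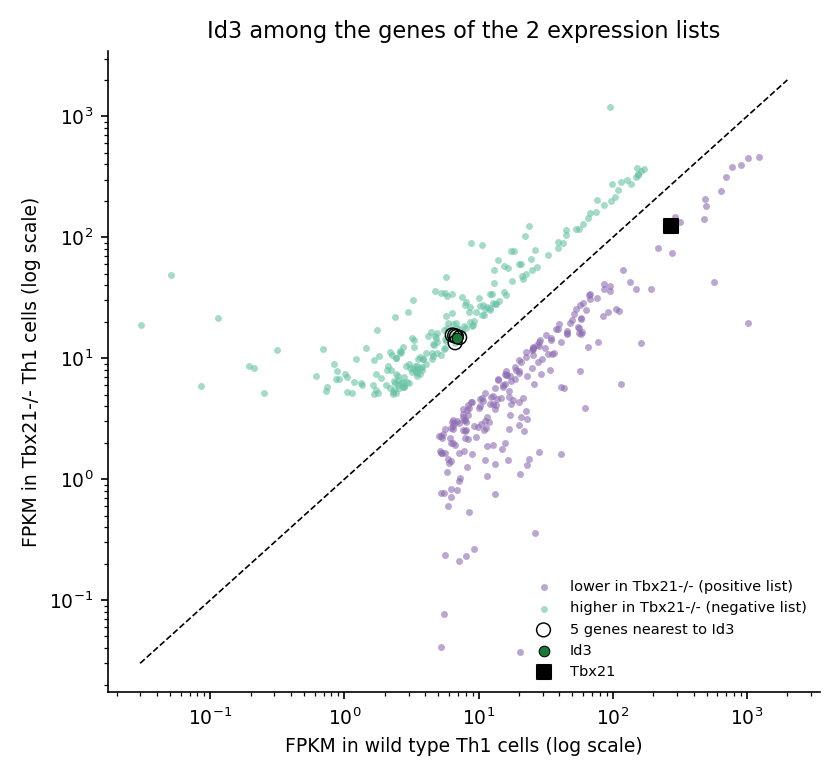
FPKM in wild type (x axis, log scale) against Tbx21-/- Th1 cells (y axis, log scale) for the genes of both expression lists, 1 point per gene, without genes listed at 0; the dashed line marks equal levels. Id3, at 6.85 and 14.7 FPKM, lies close to the inner edge of the negative list, and the open rings around it are the 5 genes nearest to it.

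Id3 ranked 182nd of 211 genes on the negative list by that ratio, with 29 genes changed less. By level it ranked 83rd in wild type and 112th in Tbx21-/- cells, near the middle of the list, whose medians were 4.93 and 15.3 FPKM. Next to it in the ranking stood 1300014I06Rik and Cd200r1, an inhibitory receptor gene, whose log2 ratios in the authors' deposited table were 1.09 and 1.08. The authors gave 1 value per genotype for both libraries together, which leaves Id3 without an error or a p-value. In such bulk RNA, more cells that express Id3 and more Id3 RNA per cell cannot be told apart.

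Id2 was on neither expression list under its symbol or any of its 4 synonyms in RefSeq. Its FPKM was therefore not analysed here, and absence from the lists does not show that its level was equal in the genotypes: no gene was listed with a log2 ratio under 1.00 in size, or with less than 5.02 FPKM in the genotype where it was higher. A difference between the responses of Id2 and Id3 was not tested.

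The 5 genes of the negative list nearest to Id3 on log2 FPKM in both genotypes, 2 values per gene, were Pcx, Ccdc109b, Serf1, Dnajb13 and Slc25a23. Their distances from Id3 were 0.044 to 0.139 log2 units. Pcx, the gene of pyruvate carboxylase, stood at 6.83 FPKM with T-bet and 15.1 without it. Of these 5 genes, Pcx and Dnajb13 also had a listed H3K27me3 region, and none had a T-bet peak or a listed H3K4me1 region.

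Marker genes of other cell types were on both expression lists, which hold 0.963% (positive) and 0.941% (negative) of protein-coding genes. All 4 Th1 markers, Tbx21, Ifng, Cxcr3 and Il12rb2, were on the positive list, with a summed level of 1419 FPKM with T-bet and 168 without it. The sum includes Tbx21, the targeted gene. The 4 general T cell markers Cd3e, Cd3g, Cd4 and Cd5 were on no list, so the T cell label was not checked on them. Of 7 genes taken as myeloid and dendritic cell markers, 4 were higher in Tbx21-/- cells (H2-Aa, H2-Eb1, H2-Ab1 and Cd74). Their summed level was 32.5 FPKM with T-bet and 161 without it. These 4 are genes of MHC class II presentation, which B cells express too, so they do not single out myeloid cells. Itgax, Lyz2 and Cd14 were on neither list. Of 4 B cell markers, Cd79a was higher, at 0.722 and 5.36 FPKM, and Ms4a1 and Pax5 were on neither list. Other genes known from B cells and plasma cells, named after their values were seen, were also on the negative list: Igj, the joining chain gene of immunoglobulins, at 0.0506 FPKM with T-bet and 48.9 without it, Pou2af1 at 0.194 and 8.69, and Derl3 at 0.903 and 6.73. Blk, a B cell kinase gene, was on the positive list, at 12.8 and 4.82 FPKM. Of 4 markers of NK cells and CD8 T cells, Nkg7 and Cd8a were lower in Tbx21-/- cells, with a summed level of 611 and 61.9 FPKM. Most of that sum was Nkg7, at 571 and 42.9 FPKM, and Cd8a stood at 39.6 and 19.1. Ncr1 and Cd8b1 were on neither list. Nkg7 also had a T-bet peak and an H3K4me1 region assigned, and whether its level came from other cells was not tested. No listed marker was at 0 in either genotype. Id3 is also expressed by B cells, and the part of these cells in its value was not tested.

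T-bet peaks separated the paralogues. Id2 was the closest gene of 6 peaks and Id3 of 0. Across the list of 3226 peaks in 1 wild type library, 2492 genes had at least 1 peak and 11 had at least 6, Id2 among them. The list names 10.4% of the 21900 protein-coding genes. A gene without a listed peak may still bind T-bet below the authors' threshold.

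The 6 peaks of Id2 lay on chromosome 12 between 25996520 and 26124000 (mm9, as are all region coordinates here), over 127 kb. The first, at chr12:25996520-25996927, had 9 tags (exact Poisson 95% interval 4.12 to 17.1) and was enriched 2.48-fold by the authors' own value. At chr12:26023507-26024049 there were 16 tags (9.15 to 25.98) and a fold of 2.73, and at chr12:26044733-26045058 there were 9 tags and a fold of 2.23. The list medians were 9 tags and a fold of 2.63. By fold these 3 peaks lay near or below the median, and by tags the middle one, with 16, was at or above 88.7% of the list.

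The peak with the most tags, 20 (12.2 to 30.9), lay at chr12:26079060-26079649 with a fold of 2.23. The next, at chr12:26115822-26116186, had 13 tags (6.92 to 22.2) and a fold of 2.10. The last, at chr12:26123683-26124000, also had 13 tags and the highest fold of the 6, 3.78, at or above 79.5% of the list. The counting intervals of all 6 peaks overlap, so the peaks were not separated by their tag counts, and intervals cover counting error only. Of the 6 peaks, 4 had a fold below the list median, while 5 had more tags per kilobase than the list median of 25.7. The false discovery rates given by the authors for them were 0.19% to 0.26%.

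**Figure D2:**
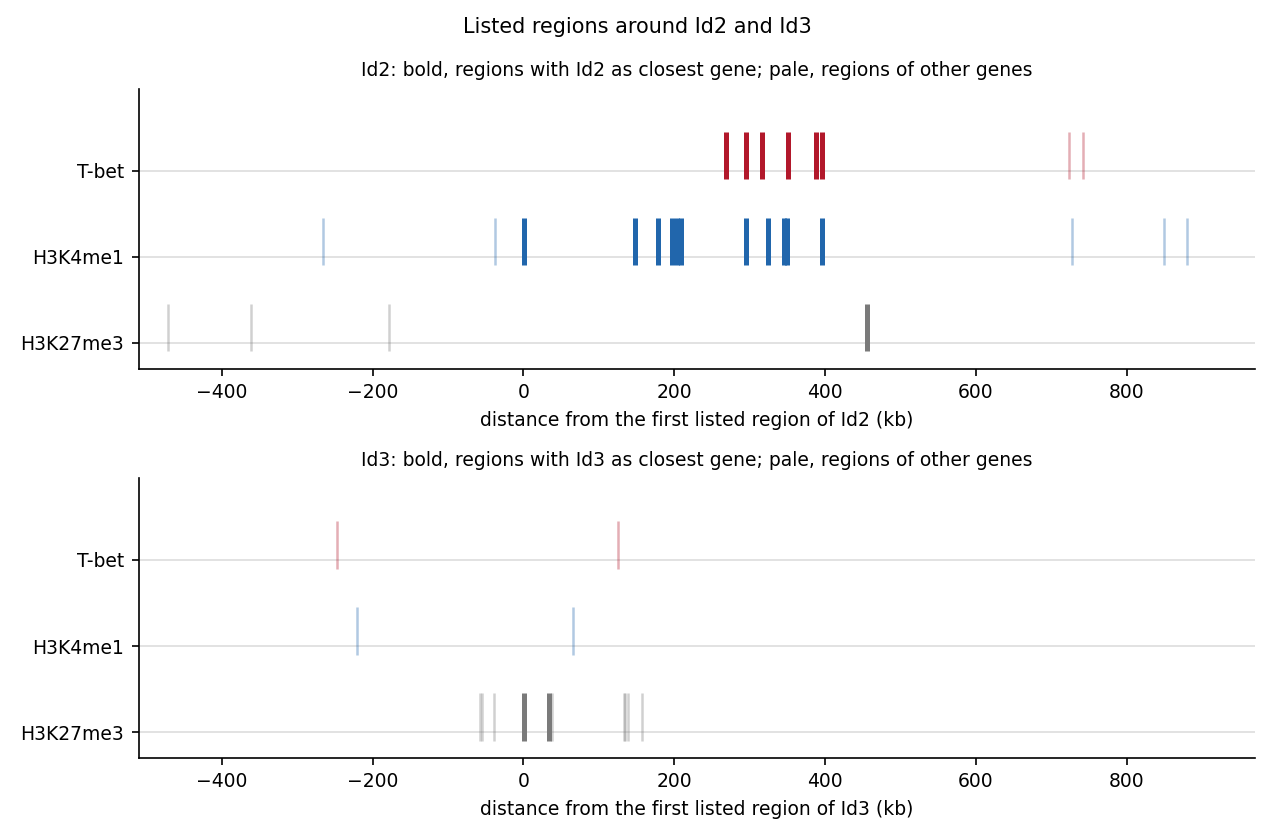
Position of every listed region within 500 kb of the regions of Id2 (top) and Id3 (bottom), in kilobases from the first listed region of each gene, on the same scale. Each tick is 1 region, bold where the gene is the closest gene and pale where another gene is; bar height carries no value. Id2 has 6 T-bet peaks, 11 H3K4me1 regions and 1 H3K27me3 region, and Id3 has only 2 H3K27me3 regions.

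H3K4me1 regions followed the same split, with 11 for Id2 and 0 for Id3. Id2 was among 35 genes of 4173 with at least 11 such regions, and 17.2% of protein-coding genes had at least 1. The list names both genotypes and does not state in the sources used here which had more signal, so no direction of change can be read for any histone region. Whether either histone list holds all regions of its mark, or only those that differ between the genotypes, is not stated either. Thus 0 listed regions at Id3 need not mean that H3K4me1 is absent there. A histone fold need not measure the strength of the mark. The 11 regions covered 17820 bp over a span of 397 kb and held 1106 tags. Pooled over their length that was 62.1 tags per kilobase, which gives long regions more weight. The list median of 39.9 is taken over single regions and is an unlike measure. Which library the histone tags come from is not stated.

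The regions of Id2 fell into 2 groups and 1 region apart. The first group, 5 regions at chr12:25875904-25938539, lay 58.0 to 120 kb from the nearest T-bet peak. It held the longest region of Id2, 3793 bp at chr12:25904509-25908301 with 262 tags (231 to 296) and a fold of 3.17, and a region of 3536 bp at chr12:25935004-25938539 with 231 tags (202 to 263) and a fold of 5.44. The densest region of Id2 was also there: chr12:25875904-25876761, with 89 tags in 858 bp, or 104 tags per kilobase, at or above 99.8% of the list. These were long regions rich in tags and of low fold, from 3.17 to 5.44 against a list median of 6.91. Against regions of like length, 3 of the 5 stayed low by fold, at or above 12.2%, 14.2% and 21.6%, the longest region being the lowest. The other 2 were at or above 76.4% and 83.1%, the latter being the 3536 bp region, compared with 172 regions of 2841 to 4390 bp.

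The second group, 5 regions at chr12:26022711-26124712, lay interleaved with the T-bet peaks, 0 to 7.11 kb from the nearest one. Its regions were shorter, 739 to 1569 bp, with 31.7 to 63.6 tags per kilobase and folds of 3.98 to 7.97. Against regions of like length, these folds were at or above 3.38%, 70.8%, 69.9%, 66.9% and 70.1%, in order of position. The first of them, 58 bp from a T-bet peak, was the lowest of all Id2 regions on this measure. The region apart, chr12:25727938-25728440, had 16 tags (9.15 to 25.98) and a fold of 18.7. This fold was at or above 98.5% of the list and 97.7% of regions of like length. It lay 268 kb from the nearest T-bet peak, so the H3K4me1 region of Id2 with the highest fold was the one farthest from a T-bet peak.

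Of the 6 T-bet peaks of Id2, 1 overlapped an H3K4me1 region by at least 1 bp. It was the peak of highest fold, 3.78, which lay wholly inside the region chr12:26123144-26124712, with 83 tags (66.1 to 103) and a fold of 5.81. The peak at 26023507 began 58 bp past the end of an H3K4me1 region. Within 10 kb of an H3K4me1 region lay 5 of the 6 peaks; over the whole list 31.2% of T-bet peaks did, and 9.55% overlapped one. The nearest H3K27me3 region was at least 60046 bp from each peak of Id2.

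**Figure D3:**
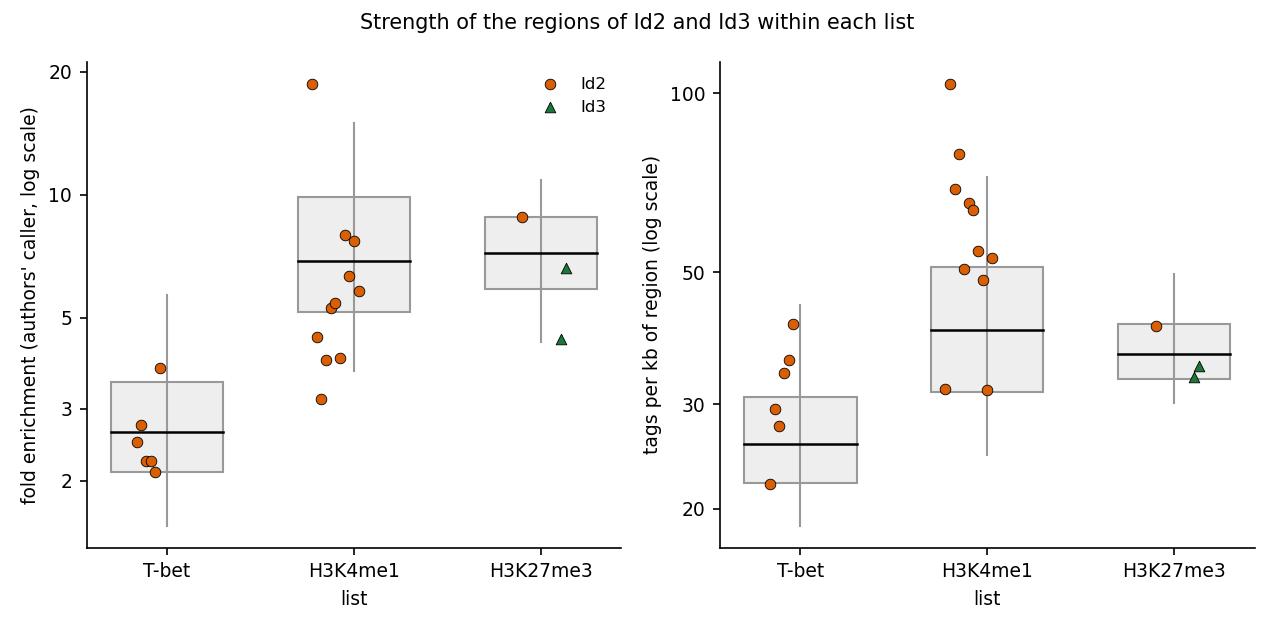
Fold enrichment (left, log scale) and tags per kilobase (right, log scale) of the regions of Id2 (circles) and Id3 (triangles) in each list; the grey box spans the 25th to 75th percentile of the list, the black bar its median and the line its 5th to 95th percentile. Most Id2 regions lie below the H3K4me1 median of 6.91 by fold and above the median of 39.9 by tags per kilobase. The medians take no account of region length, and against regions of like length the folds of Id2 were not mostly low.

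H3K27me3 was the single kind of listed region that Id3 had. The first of its 2 regions, chr4:135680182-135681083, had 30 tags (20.2 to 42.8) and a fold of 4.43, and the second, chr4:135713192-135714139, had 33 tags (22.7 to 46.3) and a fold of 6.64. Id2 had 1 such region, chr12:26184046-26184464, with 17 tags (9.90 to 27.2) and a fold of 8.85. Of protein-coding genes 11.8% were the closest gene of at least 1 such region, and 655 of the 2875 genes in the list had at least 2. Both Id3 regions were below and the Id2 region was above the list's median fold of 7.22. The regions of Id3 were the longer ones, at 902 and 948 bp against 419 bp. Among regions of like length, those of Id3 were at or above 15.3% and 83.2% by fold and that of Id2 at or above 69.0%, so fold did not order the paralogues.

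The Id3 regions lay among separate H3K27me3 regions assigned to neighbouring genes, which together covered 9846 bp and did not form an unbroken stretch. Between 135621863 and 135837889 on chromosome 4, over 216 kb, lay 10 listed regions: 3 closest to Rpl11, 2 to Id3, 1 to E2f2, 3 to Tcea3 and 1 to Zfp46. Rpl11 encodes a ribosomal protein and E2f2 a cell cycle transcription factor, and none of these 4 neighbours was on an expression list. Within 100 kb of the Id3 regions lay 5 and 6 other H3K27me3 regions, against a list median of 1; 5.27% of the list had at least 6. The Id2 region had 0 within 100 kb. The nearest listed H3K4me1 region to those of Id3, of 2691 bp and 131 tags, lay 30.0 kb away and was assigned to Asap3. The nearest T-bet peak, with 6 tags and a fold of 2.75, lay 91.9 kb away and was assigned to Tcea3. This H3K4me1 region and this T-bet peak lay inside the 216 kb span. They fell between 135718703 and 135813640, where no H3K27me3 region was listed.

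The number of regions a gene is given depends on how far its neighbours are. All listed regions between the last one of Kidins220 and the first one of Rnf144a, 761 kb apart, had Id2 as closest gene; between those of Rpl11 and E2f2, 76.3 kb apart, they had Id3. In RefSeq these pairs are also the nearest coding genes on each side. Counted per length, Id2 had 2.37 and Id3 2.62 listed regions per 100 kb. These totals cannot compare the paralogues, because the stretches differ in length and each ends at listed regions of its neighbours. Stretches of the length of that of Id3, 62.1 to 95.4 kb, had a median of 2 regions, as Id3 had, among those with at least 2. Only these were kept, so 2 is also the lowest value possible. The kinds of region differed: Id2 had 0.789 T-bet peaks and 1.45 H3K4me1 regions per 100 kb and 0.131 H3K27me3 regions, where Id3 had 0, 0 and 2.62. Among 281 stretches of 609 to 950 kb with at least 2 regions, the median had 3 regions of any kind, against 18 at Id2. Their medians by kind were 0 T-bet peaks and 2 H3K4me1 regions. The stretch of Id2 alone reached 6 T-bet peaks, and 6 of the 281 reached 11 H3K4me1 regions. Among the 170 stretches with the length of that of Id3 and at least 2 regions, 91 had no T-bet peak. Of the same 170, 29 had no H3K4me1 region and 21 had at least 2 H3K27me3 regions.

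**Figure D4:**
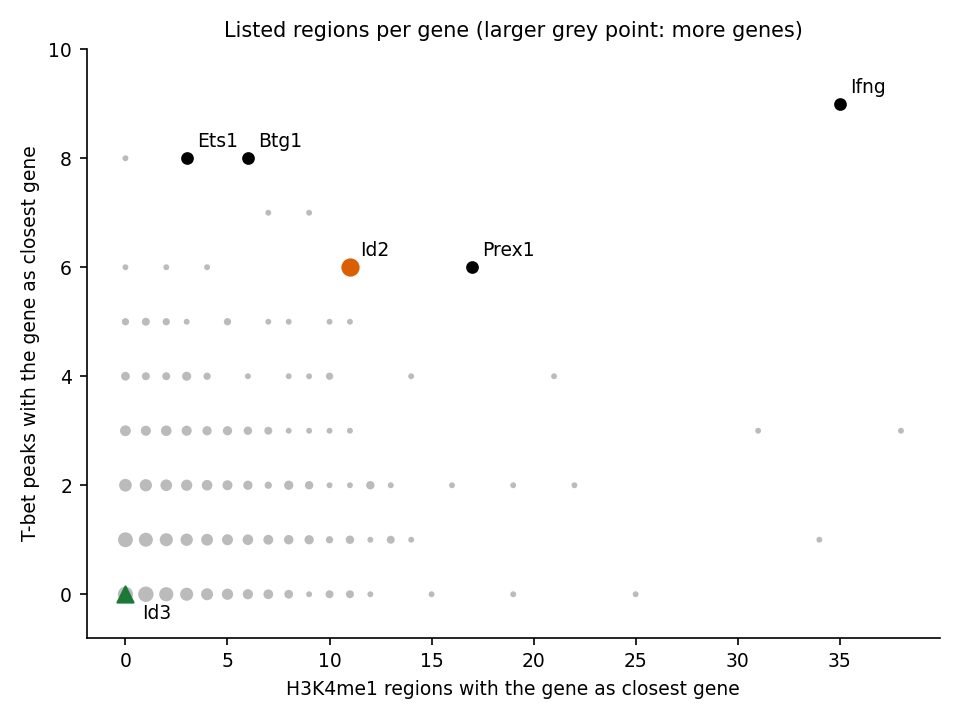
H3K4me1 regions (x axis) against T-bet peaks (y axis) per gene, for genes with at least 1 region in any list; larger grey points stand for more genes, and 6 genes are marked. Id2, with 11 and 6, lies apart from most genes, and Id3 lies at 0 on both axes.

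At least 6 T-bet peaks and at least 11 H3K4me1 regions were found at 3 genes: Ifng, Prex1 and Id2. Ifng, the signature Th1 cytokine gene, had 9 and 35, and Prex1, a gene of a guanine nucleotide exchange factor, had 6 and 17. These genes were named after their values were seen. Both others were on the positive expression list and had no H3K27me3 region, while Id2 was on neither list and had 1. Of the 11 genes with at least 6 T-bet peaks, 4 were on the positive list, 0 on the negative list and 7 on neither, Id2 among these. Over all coding genes the shares were 0.963% for the positive list and 0.941% for the negative list. Genes with many peaks thus included some with and some without a listed change.

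The combination of regions at each paralogue was seen at other genes too. Like Id2, 370 of 21900 protein-coding genes, or 1.69%, had at least 1 region of all 3 kinds. Like Id3, 1390 or 6.35% had H3K27me3 regions alone. Among the 206 matched genes of the negative list, 32 or 15.5% had H3K27me3 regions alone, Id3 included, and 68 or 33.0% had any. Among the 211 matched genes of the positive list, 3 or 1.42% had H3K27me3 regions alone. Il4, the Th2 cytokine gene, and Pparg, a nuclear receptor gene of Th2 cells, were among the 32, named here after the values were seen.

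The partners of Id2 and Id3 were on neither expression list. Of 7 E and Id protein genes, 0 were on the positive list and 1, Id3, on the negative list, where the shares over all coding genes were 0.963% and 0.941%. T-bet peaks were assigned to 3 of the 7, namely Tcf3, Tcf12 and Id2, and H3K4me1 regions to 4, namely Tcf3, Tcf4, Tcf12 and Id2. H3K27me3 regions were assigned to Tcf4, Id2 and Id3. The shares of all coding genes for these 3 kinds were 10.4%, 17.2% and 11.8%. Id1 and Id4, the other Id genes, had 0 regions in all 3 lists.

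**Figure D5:**
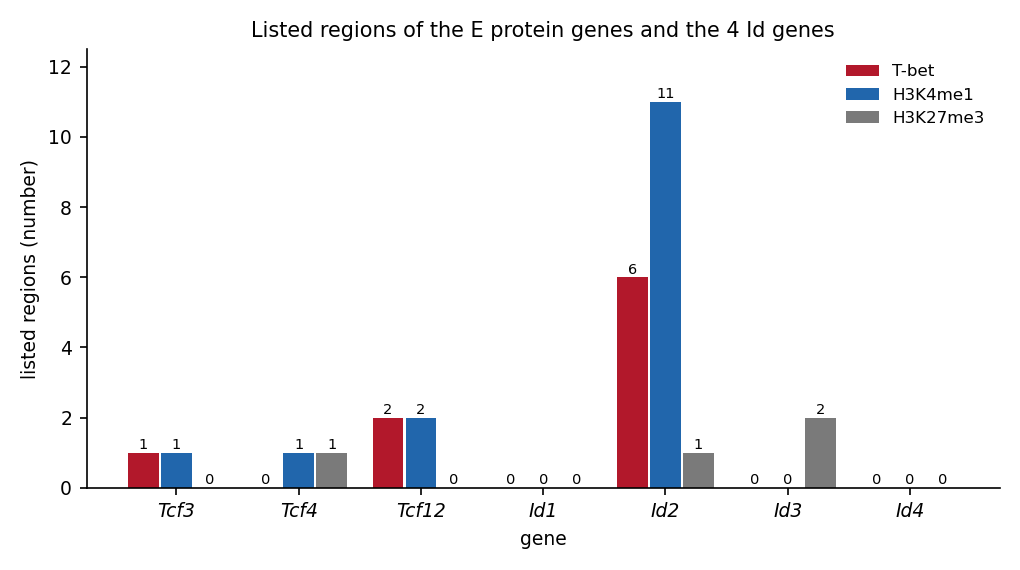
Number of listed regions (y axis) with each E protein gene (Tcf3, Tcf4, Tcf12) or Id gene as closest gene (x axis), by list. Id2 has more T-bet peaks (6) and H3K4me1 regions (11) than the 6 other genes, and Id3 has the most H3K27me3 regions (2).

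Tcf3, the gene of E2A, had 1 T-bet peak at chr10:79896568-79896904, with 9 tags and a fold of 1.84; an annotation left in the authors' list places it 339 bp from the start of Tcf3. Its H3K4me1 region, with 45 tags and a fold of 4.14, lay 2263 bp from that peak. Tcf12, the gene of HEB, had 2 T-bet peaks of 7 tags each, with folds of 2.98 and 2.79, and 2 H3K4me1 regions 2488 and 797 bp from a peak. Tcf4 had no T-bet peak, 1 H3K4me1 region with a fold of 9.0 and 1 H3K27me3 region with a fold of 9.42. The E protein genes had fewer T-bet peaks than Id2, 0 to 2 against 6. Their tag counts, 7 to 9 against 9 to 20, had overlapping counting intervals, and both folds at Tcf12 were above those of 5 of the 6 peaks of Id2.

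Lists of genes that accompany each paralogue in T cells were compared with the expression lists. Of 15 effector genes linked to Id2, 8 were on the positive list and 0 on the negative list. These 8 were Tbx21, the targeted gene, whose place follows from the design, and Gzma, Prf1, Il12rb2, Il18r1, Il18rap, Havcr2 and Bhlhe40. By the authors' deposited table their median log2 ratio was -1.28, against -1.59 over the whole positive list. Prf1, the gene of perforin, stood at 77.4 FPKM with T-bet and 13.7 without it, and Havcr2, the gene of the receptor TIM-3, at 21.6 and 4.70. Over all coding genes 0.963% were on the positive list and 0.941% on the negative list. T-bet peaks were assigned to 9 of the 15 and H3K4me1 regions to 10, against 10.4% and 17.2% of all coding genes. H3K27me3 regions were assigned to 2, or 13.3%, near the share of 11.8% over all coding genes.

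Of 18 memory and follicular genes linked to Id3, 6 were on the negative list, Tcf7, Slamf6, Il21, Tox2, Klf3 and Cd200, and 1 was on the positive list. The median log2 ratio of the 6 was 1.89 in the authors' deposited table, against 1.44 over the whole negative list and 1.08 for Id3. Tcf7, the gene of the transcription factor TCF-1, stood at 16.6 FPKM with T-bet and 55.7 without it, and Klf3, a zinc finger repressor gene, at 2.76 and 6.93. Over all coding genes 0.941% were on the negative list and 0.963% on the positive list. All 6 had a T-bet peak assigned, where Id3 had none, and 13 of the 18 genes had one, against 10.4% of all coding genes. H3K27me3 regions were assigned to 7 of the 18, against 11.8%, among them Tcf7, Tox2 and Klf3. H3K4me1 regions, of which Id3 had none, were assigned to 10 of the 18, against 17.2%. Both gene lists were chosen with earlier results of these data known, so their counts are no independent evidence.

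Of 19 genes known as E protein targets in lymphocytes, 1 was on the negative list and 0 on the positive list. It was Gfi1, the gene of a zinc finger repressor, at 9.59 FPKM with T-bet and 23.9 without it. The other 18, among them Il7r, Cxcr5, Rag1, Socs3 and Gata3, were on neither list. The negative list held 0.941% and the positive list 0.963% of all coding genes. T-bet peaks were assigned to 10 of the 19, H3K4me1 regions to 10 and H3K27me3 regions to 7, where the shares of all coding genes were 10.4%, 17.2% and 11.8%.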

How the data were processed

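Build mm9 and the tools TopHat 1.3.3, DESeq (no version), MACS 1.4.1, CASAVA 1.7 and Bowtie 0.12.7 stand in the submitters' processing notes without roles. Per the file headers, the authors deposited FPKM, 1 value per genotype, and a log2 ratio per gene, positive where Tbx21-/- was higher; how genes were chosen for these lists was not analysed here. The deposited region lists give a count of tags, a fold enrichment (a ratio) and, for T-bet, a false discovery rate in percent. Per the labels, T-bet ChIP was set against Th1 input; which genotype served as control for the histone lists could not be read from the labels. Sequencing depth is unknown, so tag counts are not compared between lists.

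Regions were assigned by the authors' closest gene. The start, end and length columns of all 14844 regions showed 1-based closed intervals. Symbols and synonyms were matched to 21900 protein-coding RefSeq genes (GRCm38.p6, for names and gene order). Gene names turned into dates (10 for T-bet, 12 for H3K4me1, 6 for H3K27me3) were not matched. Tags have exact Poisson 95% intervals. Stretches run between the listed regions of the neighbouring genes. No test across genes was possible with 1 value per genotype and 1 library per mark, and nothing in the labels says whether duplicates came from separate mice. Named genes were Id2 and Id3, the listed genes of the fixed gene lists, the 5 genes nearest to Id3, genes within 500 kb and those next to Id3 in rank. The members and lists were chosen with earlier results of these data known. Alternatives were pseudocounts of 0.1 and 1, a minimum of 5 FPKM, a stricter fold, a window of 100 kb, other overlap rules and another background. Overlap, distance and covered length were recovered for 500 of 500 simulated regions. Scripts used SciPy 1.17.1, numpy 2.4.6, pandas 2.3.3 and matplotlib 3.10.9 under Python 3.11.15. The distance limit of 10 kb, the stretches and the comparisons at like length were chosen after the data were seen. Some members of the gene and marker lists are counted but not reported here by name.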

Additional observations from a re-analysis of the deposited data

How the results depend on the processing

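The log2 ratio of Id3 was 1.10 from the FPKM values with no pseudocount, 1.09 with a pseudocount of 0.1 and 0.995 with a pseudocount of 1. A pseudocount cannot change the sign of this ratio, so the direction was not tested by these settings. The rank of 182 was the same with a minimum of 5 FPKM, which removed no gene of the negative list. With regions at or above the median fold of their list, Id2 had 2 T-bet peaks, 3 H3K4me1 regions and 1 H3K27me3 region, and Id3 had 0 of each. This reverses the order of the paralogues by number of H3K27me3 regions. With all regions within 100 kb of the outermost region of each gene, whatever their closest gene, Id3 had 1 T-bet peak, 1 H3K4me1 region and 7 H3K27me3 regions, and Id2 had 6, 12 and 1. With edges at most 1000 bp apart, 2 T-bet peaks of Id2 met a histone region, and with at least 50% of the peak covered, 1 did. Merging H3K4me1 regions less than 5 kb apart, a choice made after seeing the data, left 8 domains at Id2. Against the genes named in a histone list, 2.83% were on the positive list, 1.80% on the negative list and 24.2% had a T-bet peak. No paired analysis was possible because the deposited values combine the duplicate libraries of each genotype, so the replicate block and the leave-one-out settings were not run. A gene's number of regions rests on the authors' threshold, on 1 library per mark and genotype and on their closest-gene rule; a region under the threshold is not seen.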

Other observations

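Other basic helix-loop-helix genes were on both expression lists. Of 16 genes of this family and of E protein partners, Bhlhe40, a repressor gene active in cytokine-producing T cells, was on the positive list, at 290 FPKM with T-bet and 147 without it. Msc, the gene of the repressor musculin, was on the negative list, at 1.80 and 10.5 FPKM, and its log2 ratio was 2.51 by the authors' deposited table. Bhlhe40 had 1 T-bet peak, with 13 tags and a fold of 3.83, 8942 bp from the nearest H3K4me1 region, and Lyl1 and Lmo2 also had a T-bet peak assigned. H3K4me1 regions were assigned to Hey1 and Cbfa2t3, and H3K27me3 regions to Bhlhe41, Lmo4, Hes1 and Hey1. Of the 16 genes, 3 had a T-bet peak, 2 an H3K4me1 region and 4 an H3K27me3 region, against 10.4%, 17.2% and 11.8% of all coding genes. On each expression list there was 1 of the 16, where the shares over all coding genes were 0.963% (positive) and 0.941% (negative).

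Of 15 genes of the signals known to act upstream of Id genes (Egr and Nab factors, Smad factors, and receptors for TGF-beta and bone morphogenetic proteins), 0 were on either expression list. Over all coding genes the shares were 0.963% for the positive list and 0.941% for the negative list. T-bet peaks were assigned to 5 of the 15 genes, Egr1, Smad3, Smad4, Tgfbr1 and Tgfbr2. H3K4me1 regions were assigned to 7 and H3K27me3 regions to 7; the shares of all coding genes were 10.4%, 17.2% and 11.8%. Smad3 and Tgfbr2 had regions of all 3 kinds, as Id2 and 1.69% of coding genes had.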
